A study of Mus musculus with 24 samples.

Results

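RPE Bmal1 KO (KO) and RPE Bmal1 WT (WT) animals were compared at ZT13, 1 h after lights off in a cycle of 12 h light and 12 h dark, which tells how the transcriptome of the retinal pigment epithelium (RPE) differed between the genotypes early in the night. The comparison took the 3 KO and the 3 WT libraries of ZT13, 6 of 24 libraries in the study, and the 20230 autosomal genes, of 53700 in the table, with enough counts in these 6 libraries. The other 18 libraries came from ZT1, ZT7 and ZT19. All mice were C57BL/6, 12 to 16 weeks of age and of both sexes, and carried the floxed Bmal1 allele and Rpe-CRE, a doxycycline-inducible Cre recombinase driven by the Vmd2 promoter. Cre was induced in KO by doxycycline in the food between postnatal days 60 and 74. The methods describe food without it for WT, whereas the sample labels name doxycycline food for both. By the methods, effects of Bmal1 loss and of doxycycline itself cannot be told apart in this comparison. Each library was described as the 2 RPE isolates of 1 mouse, so the replicates were taken as separate mice. The posterior segment without the neural retina was sonicated to free the RPE from choroid and sclera, and total RNA was depleted of ribosomal RNA before a stranded library was made. The study described Bmal1 loss in this line as mosaic, so RPE cells that kept the protein may have been part of each KO library.

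Bmal1, whose gene is named Arntl in the annotation, is the transcription factor that pairs with CLOCK or NPAS2 and binds E-box sequences to switch on the Period and Cryptochrome genes, whose proteins then repress it. The same pair drives the REV-ERB receptors, which repress Arntl, and the PAR bZIP factors DBP, TEF and HLF, which pass the rhythm on through D-box sequences. In the RPE, a single layer of pigmented cells behind the photoreceptors, the clock is known for timing the uptake of shed photoreceptor outer segments, and the cells also recycle the visual chromophore, carry melanin and move ions and water.

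No gene separated KO from WT at ZT13 past the threshold, that is 0 of 20230 (0%) at an adjusted p under 0.05 by edgeR's quasi-likelihood test, where the smallest adjusted p was 0.9999. At an unadjusted p under 0.05 there were 103 genes (0.509%), 63 higher (0.311%) and 40 lower (0.198%) in KO. A calibrated test would give a share of about 0.05 without any difference, so the test was conservative here. The 0 calls therefore do not show that the genotypes were alike, and the reason for the low share was not tested. DESeq2 and limma-trend also called 0 genes, with 67 and 91 at an unadjusted p under 0.05. With the replicate number as a block, since same-numbered libraries of this time point deviated together, 0 genes were called and 195 had an unadjusted p under 0.05, 132 of them higher in KO. Over the 20230 genes, 9346 were fitted higher in KO and 10884 (53.8%) lower. For 609 genes (3.01%) the 3 values of KO lay on one side of all 3 values of WT. Such groups are said here not to overlap, with 348 genes higher (1.72%) and 261 lower (1.29%). These shares are the background for the lists below and not levels set by chance. If the 6 libraries were interchangeable, a larger share of genes would be expected to have groups that did not overlap. A list share above the background need not exceed chance. The results that follow are therefore levels, differences and their intervals, and no gene named was called in this test. Levels are CPM, read counts scaled to the size of each library after TMM normalization, differences are log2 KO minus WT with a 95% interval from the edgeR fit, and positions are on mm10.

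Libraries of 1 group differed in depth and in the tissue they held. Total counts ran from 4363712 to 10209352 in KO and from 5472362 to 10550207 in WT, and mitochondrially encoded genes took 3.88% to 9.98% of them in KO and 8.55% to 15.0% in WT. Xist had 10310 CPM in KO 1 and 8158 and 5896 CPM in WT 1 and 3, where Y-linked genes were under 1 CPM. By these genes the sexes were unevenly spread. WT 2 held counts of both kinds, and whether it held RNA of 1 mouse alone was not tested. KO 1 stood apart by receptor genes of the olfactory and vomeronasal families, which summed to 742 CPM there, 110 and 89.4 CPM in the other KO libraries and 110 to 176 CPM in WT. The 15 fibroblast and sclera markers were also high in KO 1, at a sum of 4930 CPM against 2149 and 2317 CPM in KO 2 and 3 and 1763 to 2323 CPM in WT. Rod photoreceptor genes summed to 2583, 14010 and 6379 CPM in KO and to 2879, 17560 and 3382 CPM in WT, so both libraries numbered 2 carried the most. Skeletal muscle genes summed to 18550, 15770 and 60290 CPM in KO and to 65780, 12190 and 57570 CPM in WT. Lens and cornea genes summed to 10420, 12470 and 11810 CPM in KO and to 18920, 10030 and 16190 CPM in WT. The lens crystallin Cryaa had 5489 CPM in WT 1 against 6.41 to 353 CPM in the other 5 libraries. The corneal keratin Krt12 was highest in WT 3, at 4984 CPM against 3043 to 3829 CPM in the other 5. The RPE was present in every library, since Rpe65, the isomerase that defines it, had 133 to 360 CPM in KO and 114 to 234 CPM in WT. In such bulk samples fewer cells of a type and less RNA per cell cannot be told apart.

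**Figure D1:**
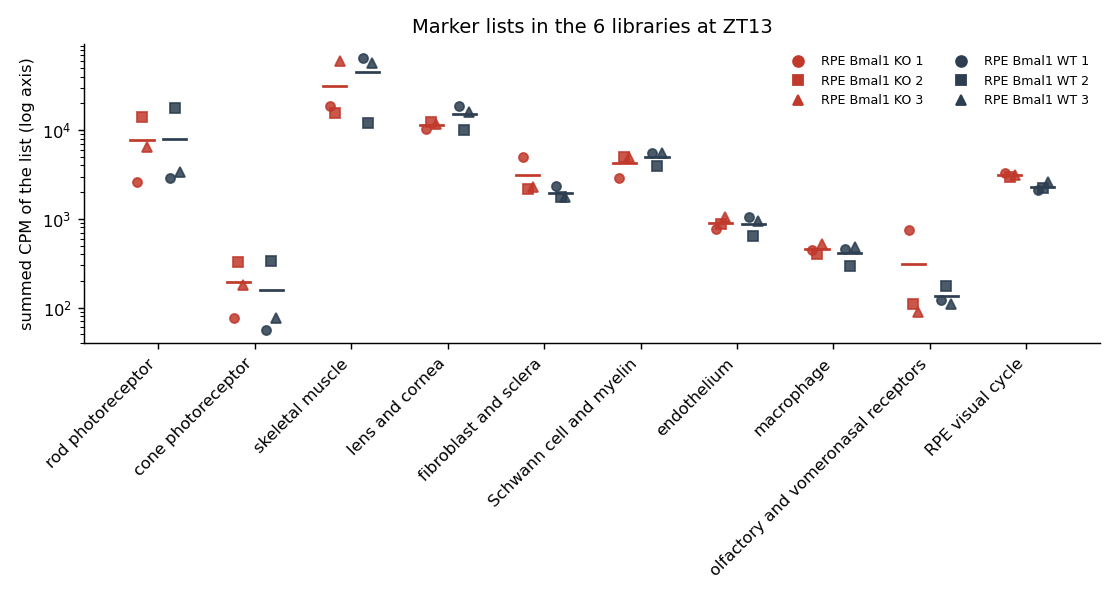
Summed CPM of each marker list in each library at ZT13, on a log axis, with KO in red on the left and WT in dark blue on the right, symbols for replicates 1 to 3 and a bar at the mean. The rod sums were 14010 and 17560 CPM in the libraries numbered 2, and the receptor sum of 742 CPM in KO 1 lies above the other 5.

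Among the 41 clock genes tested, of which 0 had an unadjusted p under 0.05, the groups did not overlap for 2 (4.88%, against 3.01% of all genes). The median log2 difference was -0.07 over the 41 genes and -0.02 over all genes. In KO 14 clock genes were fitted higher and 27 lower (65.9%, against 53.8% of all genes). For 29 of the 41 the 95% interval lay inside a 2-fold difference either way, and for 12 it reached past that, so that a 2-fold difference was not excluded by the data for those 12. The promoters of the Period gene Per1, the repressor Ciart, the Period gene Per3 and Arntl show the sequences through which the loop is known to act, with the letters searched in capitals. They are the 250 bases before a RefSeq start on GRCm38.p6, 5′ to 3′ on the strand of the gene, and for Arntl the 30 bases around a match that lies 30 bases past the start.
Per1, chr11:69098699-69098948, plus strand, with 1 E-box: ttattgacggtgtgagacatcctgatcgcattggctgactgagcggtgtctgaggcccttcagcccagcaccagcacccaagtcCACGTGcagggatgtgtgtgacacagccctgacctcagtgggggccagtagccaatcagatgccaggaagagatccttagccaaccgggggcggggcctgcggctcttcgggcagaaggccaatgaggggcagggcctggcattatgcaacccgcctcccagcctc
Ciart, chr3:95882229-95882478, minus strand, with 3 E-boxes: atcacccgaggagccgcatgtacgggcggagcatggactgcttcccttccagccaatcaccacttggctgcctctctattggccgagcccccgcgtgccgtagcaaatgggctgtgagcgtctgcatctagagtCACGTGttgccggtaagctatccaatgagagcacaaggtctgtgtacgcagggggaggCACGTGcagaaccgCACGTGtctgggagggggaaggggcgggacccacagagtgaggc
Per3, chr4:151044666-151044915, minus strand, with 2 D-boxes: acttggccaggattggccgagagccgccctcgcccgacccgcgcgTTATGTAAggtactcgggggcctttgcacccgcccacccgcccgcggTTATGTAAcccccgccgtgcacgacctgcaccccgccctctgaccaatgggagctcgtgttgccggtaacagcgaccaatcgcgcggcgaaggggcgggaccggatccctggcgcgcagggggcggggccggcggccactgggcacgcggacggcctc
Arntl, chr7:113207530-113207559, plus strand, with 1 REV-ERB and ROR element: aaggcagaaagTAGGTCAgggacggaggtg

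The E-box CACGTG stood in at least 1 promoter window of 8 of the 32 tested clock genes matched by symbol to the RefSeq table (25%), and of 1310 of all 12158 tested genes matched in the same way (10.8%). Counted by window, it stood in 7.15% of the 32851 windows of the table. The windows ran from 250 bases before to 50 bases after a start, and both strands were searched. The 8 genes were Ciart, Bhlhe41, Cry1, Per1, Cipc, Tef, Fkbp5 and Pfkfb3, and their median log2 difference was -0.06 against -0.07 for the other clock genes. Over the 12158 tested genes with a window, of 20230, those with CACGTG had a median log2 difference of -0.00 and those without one of -0.01, and the groups did not overlap for 2.98% of the first. The D-box letters TTATGTAA or TTACGTAA were found for Per3 and Timeless among the 32 clock genes (6.25%), for 0.962% of tested genes and in 1.06% of all windows. The element TAGGTCA was found for Arntl and Nfil3 (6.25%), for 2.19% of tested genes and in 2.61% of all windows. A match describes letters and not a bound site.

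Of the activators, the 4 genes that form or resemble the BMAL1 and CLOCK pair, none had groups that did not overlap. Arntl, the gene targeted in KO (ENSMUSG00000055116, chr7:113207465-113314126), had 23.8, 50.1 and 35.4 CPM in KO and 24.5, 76.5 and 15.3 CPM in WT. WT held both the highest and the lowest of the 6 values, and the log2 difference was -0.08 (95% interval -1.40 to 1.25). The fit gave 0.91 without WT 2, the library with the most rod RNA, and 1.12 without that library and KO 1. By Xist and Y-linked genes, genotype and sex cannot be told apart in the latter fit. A count for the whole gene cannot reveal the loss of single exons, and Gm45355 overlaps Arntl on the other strand, so Arntl counts did not serve as a check of the labels. Clock, the partner of BMAL1, had 247, 158 and 161 CPM in KO against 197, 225 and 150 CPM in WT, a log2 difference of -0.02 (-0.61 to 0.58). Npas2, which can replace Clock, had 16.8, 9.34 and 11.7 CPM in KO and 9.38, 8.34 and 8.85 CPM in WT, with ranges that met at their edge and a log2 difference of 0.49 (-0.18 to 1.17). Arntl2, a paralog of Arntl, had 13.8 to 16.0 CPM in KO and 15.8 to 20.5 CPM in WT, a log2 difference of -0.35 (-0.88 to 0.18).

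The repressor arm did not separate the genotypes either. Per1 had 99.0, 185 and 203 CPM in KO against 127, 131 and 276 CPM in WT (log2 difference -0.13, -1.03 to 0.77), and Per2 had 139, 193 and 196 CPM in KO against 184, 142 and 230 CPM in WT (-0.08, -0.65 to 0.50). Per3 had 366, 425 and 375 CPM in KO and 366, 333 and 474 CPM in WT, with a log2 difference of -0.01 (-0.51 to 0.49). Values of both genotypes were thus interleaved for all 3 Period genes, which encode partners of the cryptochromes in the repressor complex. Cry1 and Cry2, the cryptochromes, had log2 differences of 0.13 (-0.40 to 0.66) and 0.00 (-0.56 to 0.56). Ciart, a repressor of BMAL1 activity whose promoter holds 3 E-boxes, had 11.6, 19 and 15.3 CPM in KO and 16.2, 17.7 and 25.1 CPM in WT, the lowest log2 difference of this arm at -0.36 (-1.02 to 0.31). C920021L13Rik overlaps Ciart on the other strand. Bhlhe40 and Bhlhe41, E-box binding repressors, had log2 differences of -0.03 and 0.01.

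The REV-ERB gene Nr1d1, a direct target of BMAL1, had 291, 370 and 232 CPM in KO and 332, 403 and 374 CPM in WT. The KO libraries held the 2 lowest of the 6 values, and the log2 difference was -0.31 (-0.85 to 0.23), with Thra overlapping on the other strand. Its paralog Nr1d2 had a log2 difference of -0.08 (-0.59 to 0.43). The ROR genes encode activators of Arntl. Rora had a log2 difference of 0.01 (-0.60 to 0.62), while Rorb, also a photoreceptor gene, had 167, 295 and 163 CPM in KO and 108, 537 and 79.1 CPM in WT, highest in each group in the library with the most rod RNA (log2 difference -0.21, or 1.18 without WT 2). Of the 9 kinases, ubiquitin ligases and other regulators of clock protein stability, 0 had groups that did not overlap, with log2 differences from -0.29 for Usp2 to 0.24 for Fbxl21.

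Outputs were likewise mixed. Dbp, the D-box factor that follows BMAL1 most directly, had 66.6, 147 and 118 CPM in KO and 98.5, 86.3 and 218 CPM in WT, a log2 difference of -0.28 (-1.25 to 0.69). Sphk2 overlaps Dbp on the other strand. Tef and Hlf had log2 differences of -0.07 (-0.57 to 0.43) and -0.00 (-0.67 to 0.66). Nfil3, the D-box repressor, had 2.17, 10.9 and 13.1 CPM in KO and 4.79, 3.34 and 6.92 CPM in WT, so that KO held the lowest value and the 2 highest, and its log2 difference of 0.82 (-0.54 to 2.18) was the highest of the clock genes. The 2 genes whose groups did not overlap were outputs. Pfkfb3, which makes the allosteric activator of glycolysis, had 67.7, 66.5 and 67.1 CPM in KO, all below the 90.8, 78.0 and 81.5 CPM in WT, a log2 difference of -0.31 (-0.71 to 0.08). Dtx4, an E3 ubiquitin ligase of the Deltex family, had 37.1, 43.0 and 35.9 CPM in KO, all above the 35.7, 28.8 and 25.6 CPM in WT, a log2 difference of 0.37 (-0.13 to 0.86). The gap of Dtx4 depended on the scaling, since on the scale of all 24 libraries KO 1 (36.3 CPM) lay below WT 1 (36.7 CPM).

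**Figure D2:**
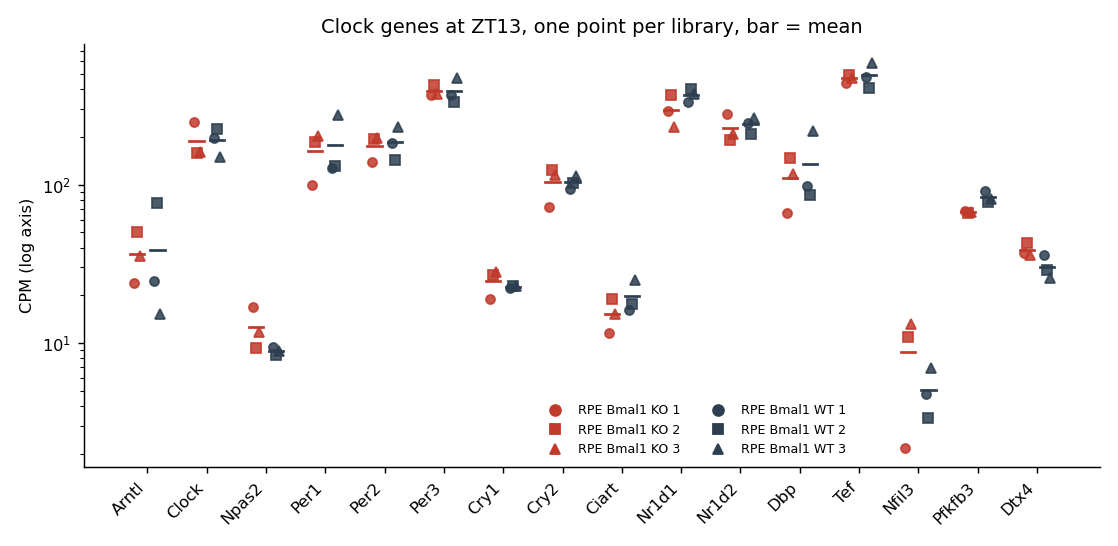
CPM of 16 clock genes in each library at ZT13, on a log axis, with KO in red on the left and WT in dark blue on the right, symbols for replicates 1 to 3 and a bar at the mean. The groups overlap for 14 of them and stand apart for Pfkfb3 and, narrowly, Dtx4.

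**Figure D3:**
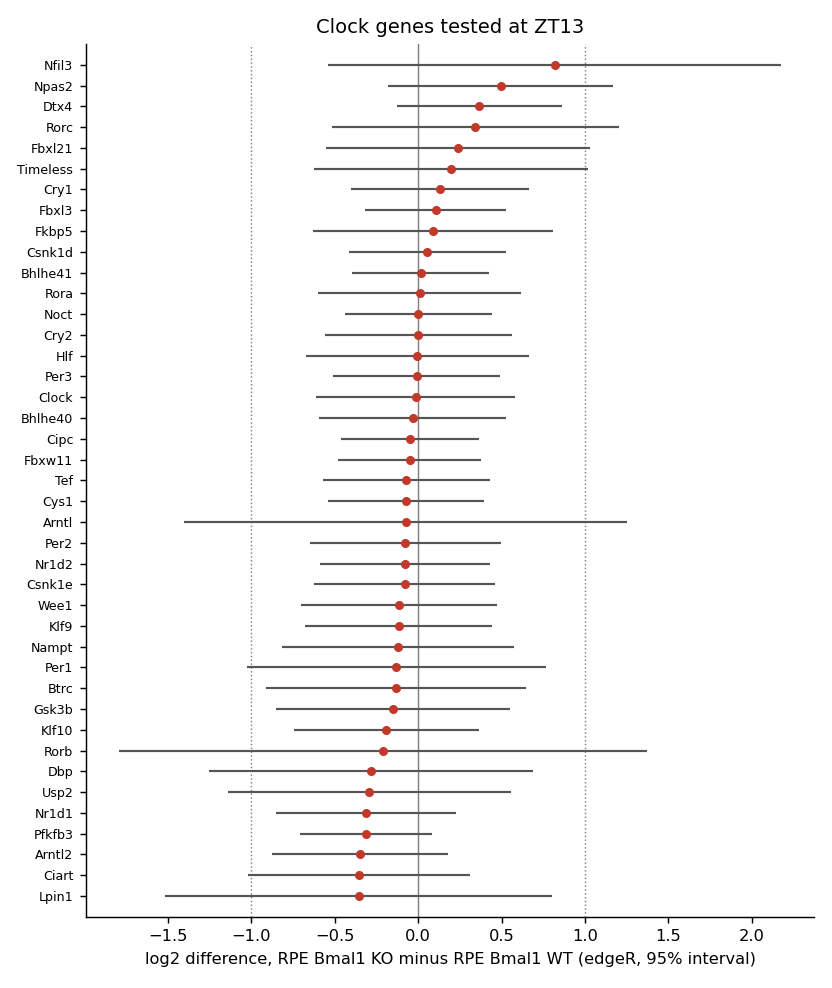
Log2 difference (point, KO minus WT) and 95% interval (line) of the 41 clock genes tested at ZT13, ordered by difference, with dotted lines at a 2-fold difference. Every interval includes 0, and 12 reach a 2-fold difference, with Nfil3 at 0.82 highest and Arntl among the widest.

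Set against the other times, the levels at ZT13 showed where in the daily cycle the comparison fell. On a scale common to the 24 libraries, 16 of the 41 clock genes had their highest mean of the 4 times at ZT13 in KO and 22 in WT, 12 of them in both genotypes, among them Per1, Per2, Per3, Cry2, Tef, Usp2 and Wee1. Per2 averaged 178 ± 36.7 CPM in KO and 190 ± 47.1 CPM in WT at ZT13, against 42.1 ± 16.4 CPM in KO and 53.0 ± 23.7 CPM in WT at ZT1 (SD, n = 3 each). Nr1d1 was highest at ZT7 in both genotypes, with 530 ± 82.5 CPM in KO and 520 ± 244 CPM in WT, against 300 ± 71.3 CPM in KO and 378 ± 33.1 CPM in WT at ZT13. Dbp and Ciart had their highest mean at ZT7 in KO and at ZT13 in WT, but the ZT7 and ZT13 values overlapped in each genotype. Npas2, Fbxl21, Dtx4 and Klf10 were the 4 clock genes with the lowest mean at ZT13 in both genotypes. Arntl was low at ZT7 and ZT13 and highest at ZT1, with 107 ± 5.06 CPM in KO and 71.7 ± 22.0 CPM in WT at ZT1.

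The genotype difference at ZT13 was then tested against the mean genotype difference at ZT1, ZT7 and ZT19, with 24421 genes in a fit of all 24 libraries. No gene passed, 0 of 24421 (0%) with a smallest adjusted p of 1 by edgeR, while 549 (2.25%) had an unadjusted p under 0.05, 582 by DESeq2 and 286 by limma-trend, which also called 0. Of the clock genes, Rorb (log2 -1.43, SE 0.65) and Dtx4 (0.46, SE 0.21) were among the 549. Dtx4 had the opposite sign at ZT7, where it averaged 40.0 ± 2.32 CPM in KO and 57.9 ± 10.2 CPM in WT (SD, n = 3 each). The daily differences of Nr1d1, Dbp and Ciart did not separate ZT13 from the other times, at -0.50 (SE 0.49), -0.34 (SE 0.53) and -0.49 (SE 0.36).

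**Figure D4:**
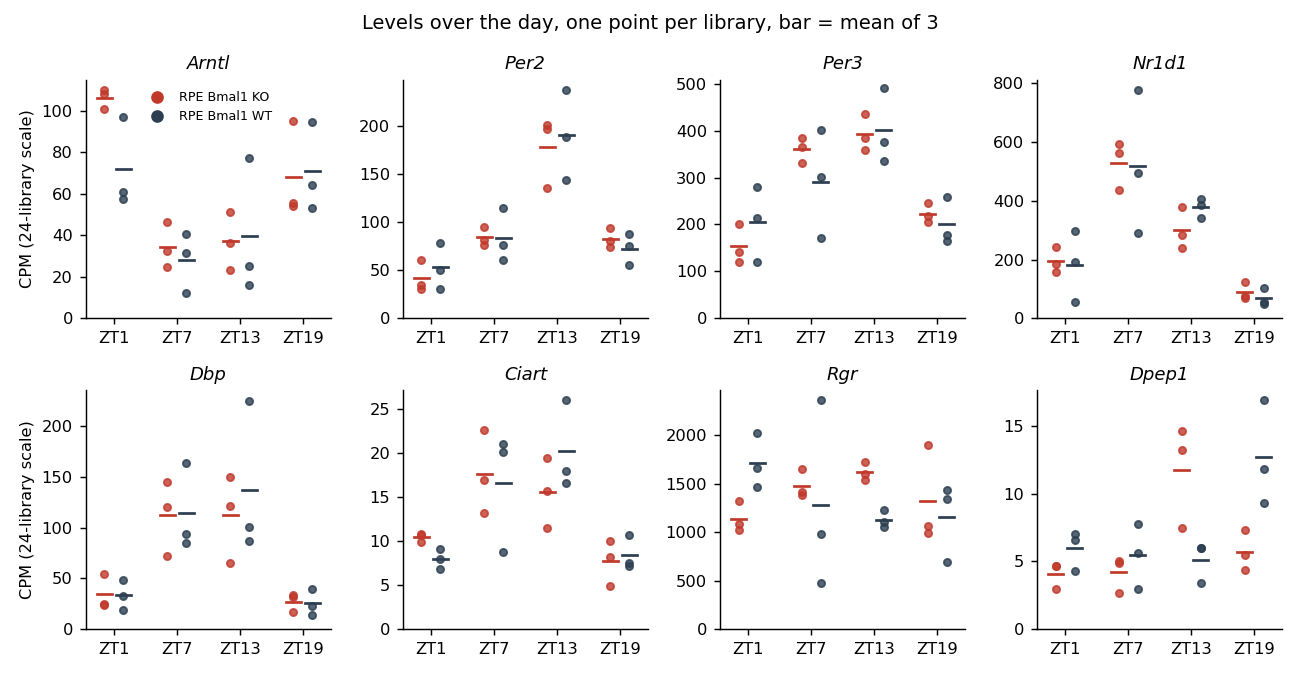
CPM on the scale of all 24 libraries at ZT1, ZT7, ZT13 and ZT19 for 8 genes, one point per library and a bar at the mean of 3, with KO in red on the left and WT in dark blue on the right of each time. Per2 is highest at ZT13 in both genotypes (178 and 190 CPM). Rgr values stand apart at ZT13 and, in the other direction, at ZT1. Dpep1 is higher in KO at ZT13 and lower at ZT19.

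The visual cycle is the pathway by which the RPE re-isomerizes the chromophore of the photoreceptors, and the list used for it also holds the chloride channel Best1 and the retinol carrier Ttr. Its genes were fitted higher in KO for 12 of 12 members, with a median log2 difference of 0.39 against -0.02 for all genes. The groups did not overlap for 3 of the 12 (25%, against 1.72% of all genes higher), Rgr, Rdh10 and Best1. Of the 12, 1 had an unadjusted p under 0.05 (0.311% of all genes higher). Rgr, an opsin of the RPE that takes part in light-dependent chromophore recycling (ENSMUSG00000021804, chr14:37034909-37048964), had 1637, 1501 and 1677 CPM in KO, all above the 1082, 1039 and 1195 CPM in WT, a log2 difference of 0.54 (0.04 to 1.04). Leaving out each library in turn moved the Rgr difference between 0.51 and 0.60. Best1 had 2.71, 3.11 and 2.87 CPM in KO and 0.997, 1.88 and 1.92 CPM in WT (0.84, -0.07 to 1.75). Rdh10, a retinol dehydrogenase, had 192, 151 and 144 CPM in KO against 127, 114 and 141 CPM in WT (0.35, -0.12 to 0.82). Rlbp1, the chromophore carrier CRALBP, overlapped, with 76.6, 112 and 97.2 CPM in KO and 42.9, 64.0 and 83.5 CPM in WT (0.59, -0.06 to 1.24). Rpe65 was mixed, at 360, 133 and 157 CPM in KO against 114, 234 and 210 CPM in WT (0.22, -0.78 to 1.22). The sum of the 12 genes was 3288, 2964 and 3160 CPM in KO and 2096, 2204 and 2629 CPM in WT, which did not overlap, while at the other 3 times it ran from 1067 to 4158 CPM over 18 libraries. The median stayed between 0.29 and 0.45 when each library was left out. The genotype difference of Rgr at ZT13 did not pass against the other times (0.58, SE 0.44), and at ZT1 its values were apart in the other direction, at 1140 ± 156 CPM in KO and 1720 ± 280 CPM in WT (SD, n = 3 each).

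**Figure D5:**
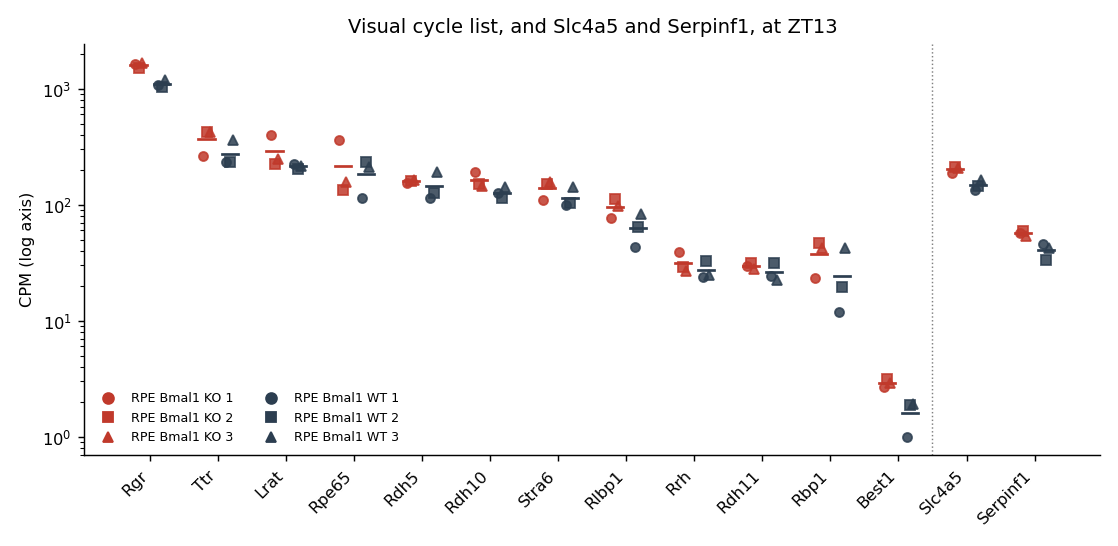
CPM of the 12 genes of the visual cycle list, ordered by level in WT, and of Slc4a5 and Serpinf1 in each library at ZT13, on a log axis, with KO in red on the left, WT in dark blue on the right and bars at the mean. All 3 KO values of Rgr (1501 to 1677 CPM) lie above all 3 of WT (1039 to 1195 CPM), while those of Rpe65 cross.

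Melanin and melanosome genes were fitted higher for 12 of 13, with a median log2 difference of 0.29, and the groups did not overlap for 3 (23.1%, against 1.72% of all genes higher). These were Slc45a2, a melanosome transporter (0.44), Mlph, which links melanosomes to their motor (0.34), and Slc24a5, an ion exchanger of melanosomes (0.37). The median was 0.10 without KO 1, where Tyrp1, an enzyme of melanin synthesis, had 757 CPM against 395 and 453 CPM in KO 2 and 3 and 358 to 422 CPM in WT. It was 0.04 without KO 1 and WT 2, a fit in which genotype and sex cannot be told apart. The choroid holds pigment cells that use these genes too, and their part was not tested.

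Transport and junction genes of the RPE had a median log2 difference of -0.01 over 22 members, of which 1 (4.55%) had groups that did not overlap, a share near the 3.01% of all genes. Slc4a5, a bicarbonate cotransporter, had 186, 212 and 208 CPM in KO, all above the 134, 146 and 164 CPM in WT, a log2 difference of 0.45 (0.03 to 0.88). Cdh3, the P-cadherin of RPE junctions, had 19.5, 104 and 90.1 CPM in KO and 49.3, 22.3 and 21.9 CPM in WT, a log2 difference of 1.2 (-0.17 to 2.58) with KO 1 the lowest of the 6. A fit with the replicate block and without pair 1, chosen after seeing the data, called Cdh3 (2.15, adjusted p = 0.0241 by edgeR's quasi-likelihood test). That fit set 2 KO against 2 WT libraries with 1 residual degree of freedom and left out KO 1, the library that went against the difference, so the call gives no support to it. Slc16a8, the lactate transporter MCT3 of the RPE, had 30.6, 71.9 and 65.9 CPM in KO against 24.9, 22.1 and 55.8 CPM in WT (0.71, -0.31 to 1.73). Among 12 secreted factors 1 (8.33%, against 3.01% of all genes) had groups that did not overlap. This was Serpinf1, which encodes PEDF, with 57.4, 59.2 and 53.5 CPM in KO, above the 46.1, 33.6 and 42.0 CPM in WT (0.48, 0.03 to 0.94). On the scale of the 24 libraries its mean was lower in KO at ZT7 (34.9 ± 8.08 against 64.2 ± 21.8 CPM) and ZT19 (55.1 ± 12.1 against 70.1 ± 5.02 CPM). At ZT1 it was higher in KO (69.5 ± 8.24 against 59.8 ± 43.8 CPM, SD, n = 3 each). The transcription factors of the RPE had a median of 0.02, with Otx2 at 0.29 (-0.38 to 0.96) and Mitf at 0.06 (-0.50 to 0.63).

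The machinery of outer segment uptake, the process the study was about, did not separate the genotypes at ZT13. The study reported a blunted uptake peak in KO at ZT1, another time, and an unaffected nocturnal peak. None of 21 genes had groups that did not overlap, and the median log2 difference was 0.01. Mertk, the receptor that triggers engulfment, had 67.9, 47.2 and 45.2 CPM in KO and 36.9, 40.7 and 49.2 CPM in WT (0.33, -0.21 to 0.87). Itgb5, the integrin subunit that binds outer segments, had 51.7, 62.3 and 65.9 CPM in KO against 59.8, 44.6 and 64.0 CPM in WT (0.10, -0.40 to 0.59). Myo7a, a motor that carries phagosomes and melanosomes, had 55.8, 56.0 and 53.3 CPM in KO against 39.7, 33.0 and 54.0 CPM in WT, with the ranges crossing at WT 3 (0.38, -0.14 to 0.90). Of the 31 lysosomal genes 1 (3.23%) had groups that did not overlap, about the share of all genes (3.01%), and the medians of the lysosome and autophagy lists were 0.04 each. Drd2, the dopamine receptor, had 5.41, 11.2 and 7.24 CPM in KO and 2.79, 12.7 and 1.28 CPM in WT (0.56, -1.17 to 2.29). It was highest in each group in the library with the most rod RNA, and its log2 difference was 2.06 without WT 2. The study reported lower receptor protein in KO at ZT1, so measure and time differ from these RNA values. Dio2, which makes active thyroid hormone, had a log2 difference of -0.10 (-0.77 to 0.58).

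Extracellular matrix genes were mostly fitted higher in KO. Collagens were fitted higher for 30 of 42 (9346 of 20230 over all genes), with a median log2 difference of 0.16. Groups did not overlap for 5 (11.9%, against 1.72% of all genes higher), and 5 had an unadjusted p under 0.05 (0.311% of all genes higher). Col1a1, the main collagen of sclera and other fibrous tissue, had 1081, 478 and 473 CPM in KO and 376, 337 and 258 CPM in WT, a log2 difference of 1.06 (0.21 to 1.92) that became 0.55 without KO 1. On the scale of the 24 libraries its mean was lower in KO at ZT7 (411 ± 181 against 704 ± 558 CPM) and ZT19 (429 ± 76.8 against 660 ± 244 CPM). At ZT1 it was higher in KO (673 ± 248 against 532 ± 499 CPM, SD, n = 3 each). Col6a1, a chain of the microfibrillar collagen VI, had 315, 146 and 147 CPM in KO against 134, 96.8 and 113 CPM in WT (0.82, 0.05 to 1.60), and 0.36 without KO 1. Col8a2, a short-chain collagen of basement membranes, differed from these in that KO 1 was the lowest of its group, with 197, 250 and 225 CPM in KO and 144, 126 and 190 CPM in WT (0.55, 0.03 to 1.06). The fibroblast and sclera markers, which share 3 genes with the collagens, were fitted higher for 14 of 15 with a median of 0.40. Without KO 1 the medians were 0.04 for collagens and 0.13 for the markers. Kera, a proteoglycan of cornea and sclera, had 701 CPM in KO 1, 62.6 and 45.2 CPM in KO 2 and 3, and 45.9 to 55.3 CPM in WT. The part of scleral tissue in the collagen values was not tested.

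The 10 genes with the smallest p among those whose KO values were all higher were Acot4, Angptl7, Thbs4, Dpep1, Ihh, Gm10509, 4930549G23Rik, Ddc, Trib3 and Cpz. They were chosen for their direction from the 1.72% of genes of that class, and none passed the test. Angptl7, a secreted factor of the anterior eye and sclera (chr4:148495183-148500460), had 193, 76.3 and 61.9 CPM in KO and 46.1, 39.2 and 35.9 CPM in WT, 2.72-fold higher by the fit (1.38 to 5.37) and at a log2 difference of 1.44, or 0.77 without KO 1. It lies within Mtor on the other strand. Thbs4, a matrix glycoprotein of tendon and muscle, had 148, 81.7 and 77.0 CPM in KO against 53.1, 52.1 and 58.2 CPM in WT (0.90, 0.26 to 1.55). Dpep1, a membrane dipeptidase (chr8:123186242-123201812), had 14.9, 7.26 and 12.9 CPM in KO and 5.79, 3.34 and 5.77 CPM in WT (1.21, 0.34 to 2.08). Trib3, a pseudokinase induced by the integrated stress response, had 9.20, 5.50 and 5.17 CPM in KO against 2.79, 2.08 and 3.72 CPM in WT (1.16, 0.27 to 2.05). Of the other members of its list, the unfolded protein response, none of the remaining 11 tested had groups that did not overlap, and Atf4, the factor upstream of Trib3, had a log2 difference of -0.12 (-0.69 to 0.44). Acot4, a peroxisomal thioesterase, Ihh, the Indian hedgehog ligand, and Ddc, which makes dopamine from its precursor, were all under 6 CPM, with log2 differences of 1.71 (0.59 to 2.83), 1.75 (0.46 to 3.04) and 1.88 (0.49 to 3.27). Cpz, a secreted carboxypeptidase that binds Wnt proteins, had 8.40 to 10.0 CPM in KO and 4.38 to 6.15 CPM in WT.

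Among genes tested at ZT13 with a mean of at least 1 CPM there, the contrast of ZT13 with the other times was ranked by p. Dpep1 and Trib3 had the smallest p of the protein-coding genes, although neither passed adjustment. The contrast uses the same ZT13 libraries, so it is no separate support for these genes. The contrast was 1.83 for Dpep1 (SE 0.43) and 1.38 for Trib3 (SE 0.36), with an adjusted p of 1 by edgeR for both. On the common scale Dpep1 averaged 11.7 ± 3.79 CPM in KO and 5.09 ± 1.49 CPM in WT at ZT13, but 5.71 ± 1.46 CPM in KO and 12.7 ± 3.88 CPM in WT at ZT19 (SD, n = 3 each). The values of both genotypes were thus apart at both night times and in opposite directions. Its highest mean fell at ZT13 in KO and at ZT19 in WT. Trib3 averaged 6.65 ± 2.04 CPM in KO and 2.94 ± 0.871 CPM in WT at ZT13, and 3.68 to 5.64 CPM in KO and 4.87 to 4.99 CPM in WT at the other times. Cercam, a membrane protein related to collagen galactosyltransferases, came next among protein-coding genes, with 20.6, 22.8 and 19 CPM in KO and 15.2, 10.4 and 15.0 CPM in WT at ZT13 (contrast 1.01, SE 0.28).

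The 10 genes with the smallest p among those whose KO values were all lower were Gm47339, Gm42614, C030032O16Rik, Mir6236, Gm28892, Gm14209, Gm48015, Gm43658, Sap30 and Gm10540, so that 1 of the 10, Sap30, codes for protein. Sap30, a subunit of the Sin3 histone deacetylase complex, had 1.08, 0.933 and 0.575 CPM in KO and 1.79, 2.29 and 1.92 CPM in WT. Several of the others lie inside larger genes on the same strand, such as Gm42614 in Ppargc1a and Gm43658 in Clock, where RNA of the model and unspliced RNA of its host cannot be told apart. Gm43658 had 10.0, 10.2 and 9.31 CPM in KO and 15.2, 17.3 and 14.1 CPM in WT (-0.66, -1.19 to -0.12), beside the log2 difference of -0.02 of Clock itself.

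Mir6236 showed the lowest log2 difference of these 10. Its annotated locus, chr9:110281287-110281409, had 61.2, 14.5 and 8.51 CPM in KO, all below the 108, 91.8 and 130 CPM in WT (-2.0, -3.54 to -0.47). The KO libraries themselves spanned a wide range, with KO 1 the highest, and the difference was -3.25 without it. The fit with the replicate block and without pair 1 called Mir6236 too (adjusted p = 0.00967 by edgeR's quasi-likelihood test), with the same limits, since KO 1 was the KO library nearest to WT. At the other times single libraries ran from 0.44 to 194 CPM in KO and from 0.745 to 593 CPM in WT, on the scale of the 24 libraries, and the contrast with those times was -1.58 (SE 1.48). Total RNA libraries count reads over this locus and do not measure the mature miRNA, whose sequence in RefSeq is shown to identify the locus, with the seed, bases 2 to 8, in capitals.
mmu-miR-6236, chr9:110281353-110281371, plus strand: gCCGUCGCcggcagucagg

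Metabolic groups showed small differences. Genes of cholesterol synthesis and uptake were fitted lower in KO for 17 of 18, yet none had groups that did not overlap and the median log2 difference was -0.12, or 0.02 without WT 3. Nuclear-encoded genes of oxidative phosphorylation were fitted lower for 55 of 78 (53.8% of all genes lower), with a median of -0.11. The groups did not overlap for 4 (5.13%, against 3.01% of all genes). Of these 1 was higher and 3 were lower in KO (1.29% of all genes lower), among the lower Cox5b, a subunit of complex IV, at 4.33 to 5.98 CPM in KO and 6.05 to 10.4 CPM in WT (-0.59, -1.37 to 0.18). These genes are abundant in muscle, and the skeletal muscle markers were fitted lower for 25 of 25, with a median of -0.45, or -0.08 without KO 1. The oxidative phosphorylation median was 0.03 without KO 1 and 0.05 without WT 3. The part of muscle in the metabolic values was not tested. Glycolysis genes had a median of -0.09 over 21 members, cytosolic ribosomal protein genes one of 0.00 over 73, lipogenesis one of 0.08 over 9, and the 23 immediate early and 15 glucocorticoid response genes medians of -0.04 and 0.05, with 0 members apart in the last 3 lists.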

How the data were processed

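RNA was sequenced from the RPE of both genotypes at 4 times of day, 3 mice each. The deposited table holds raw read counts per Ensembl gene, which the authors made by alignment to mm10 with Bowtie2 2.3.4 and counting with HTSeq 0.9.1 per the submitters' processing notes. The annotation release and the strand setting of the counting are not given in the sources used here. Columns were matched to samples by title, and 11 other columns were not used. Of 53700 identifiers, 52147 matched mouse GENCODE release 21, which gave symbols and positions, and 48091 of these were autosomal. Genes of X, Y and the mitochondrion were left out of the test.

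The 6 libraries of ZT13, with 4363712 to 10550207 counts, were fitted with edgeR 4.0.16 in R 4.3.3 (TMM scaling, filterByExpr with a minimum count of 10, quasi-likelihood F-test with genotype as the only term, Benjamini-Hochberg adjustment at 0.05). The contrast of ZT13 with the other times was fitted over 24 libraries in 8 groups. Intervals rest on the spread between mice, and depth limits the precision of genes with few counts. The code was tested on simulated data. The alternatives tried were DESeq2 1.42.0, limma-trend (limma 3.58.1, prior count 2), median-of-ratios factors or no scaling factors, other filters and gene sets, robust spread, a replicate block, leaving out libraries and all 24 libraries in the fit. Same-numbered libraries at ZT13 deviated together, with correlations of 0.263, 0.386 and 0.489, each the highest of its library, and were read as paired. The sample titles give replicate numbers but name no pairing, so this reading rests on the values themselves. Over the 4 times they were not, so the block is only an alternative there.

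Members and gene lists were chosen with earlier results of these data known. Genes named were all tested clock genes, the genes the study is about, the 10 higher and 10 lower genes of smallest p among those at a mean of at least 1 CPM whose groups did not overlap, and up to 4 members of smallest p and the 2 most abundant of each other list. The 10 genes of smallest p in the contrast of ZT13 with other times were added, among genes tested at ZT13 at the same mean level. Cryaa and Rpe65 are given as markers, and the host or overlapping genes of named genes by name only. Promoters came from a RefSeq table on GRCm38.p6 and were matched by symbol with pandas 2.3.3, which held 12158 of the 20230 tested genes.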

Additional observations from a re-analysis of the deposited data

How the results depend on the processing

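No gene was called between KO and WT at ZT13 under any scaling, tool, filter or gene set tried, nor when single libraries were left out (0 higher and 0 lower at the lowest and the highest). With the replicate number as a block, which follows the pairing read from the values at ZT13, 0 genes were called, higher or lower, and 195 had an unadjusted p under 0.05, against 103 without it. The exception to 0 calls was a fit chosen after seeing the data, the replicate block without pair 1 (2 against 2 libraries, 1 residual degree of freedom), which called 1 gene higher, Cdh3 (log2 2.15, adjusted p = 0.0241 by edgeR), and 1 lower, Mir6236 (log2 -3.25, adjusted p = 0.00967). The block with all pairs changed no call. The cause was not tested. Genes at an unadjusted p under 0.05 ran from 61 without WT 1 to 713 without WT 2, with 591 without KO 1 and 241 without WT 3. There were 1805 without KO 1 and WT 2, where the smallest adjusted p was 0.0755 and the rod median was 1.69, against 0.16 with all 6. In that fit the KO libraries held Y-linked counts and the WT libraries high Xist counts, so genotype and sex cannot be told apart. Without a filter on low counts, 320 genes had an unadjusted p under 0.05. After seeing the data the fit was repeated without marker genes of other cell types (98 genes). The contrast of ZT13 with the other times called 0 genes under all alternatives, with 213 to 1669 at an unadjusted p under 0.05, and 720 under the block. Of 273 named genes, 0 to 14 had another sign under the other tools, scalings, filters and fits with all 6 libraries, 19 to 46 with 1 library left out and 36 without KO 1 and WT 2.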

Other observations

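Genes of complement and of resident immune cells, which the choroid and the RPE both hold, were mostly level at ZT13. Complement genes had a median log2 difference of 0.17 over 15 members, 0 with groups that did not overlap, and 0.00 without KO 1. Serping1, the inhibitor of C1, had 140, 108 and 144 CPM in KO and 112, 76.7 and 108 CPM in WT (0.40, 95% interval -0.12 to 0.92). Macrophage markers were fitted higher for 17 of 20, with a median of 0.13 and 0 members apart. Csf1r, the receptor that macrophages depend on, had a log2 difference of 0.12 (-0.46 to 0.71). The interferon response had a median of 0.04 over 15 genes.

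Among genes of the stress response and of hormone handling, none of the 17 antioxidant genes (median 0.10), the 13 heat shock and cold-inducible genes (-0.08) or the 9 genes of thyroid hormone handling (0.01) had groups that did not overlap. Slco1c1, a thyroid hormone transporter, had 20.0, 21.5 and 18.1 CPM in KO and 11.8, 12.5 and 19.6 CPM in WT, so that WT 3 alone reached the KO range (0.43, -0.20 to 1.06). Mobp, a myelin gene, had 826, 903 and 808 CPM in KO, all below the 1209, 981 and 1006 CPM in WT (-0.33, -0.83 to 0.16), the 1 of 11 Schwann cell and myelin genes whose groups did not overlap (9.09%, against 3.01% of all genes). Lens and cornea genes were fitted lower for 19 of 19 with a median of -2.33, or 0.25 without WT 1. Of these genes 4 had an unadjusted p under 0.05 (0.198% of all genes lower). The lists of dopamine and cAMP signaling (21 genes) and of the cell cycle (12 genes) had medians of -0.05 and 0.09, and that of the cell cycle was -0.20 without KO 1.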
